A study of Yarrowia lipolytica with 4 samples.

Results

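Glutathione S-transferases were followed in Yarrowia lipolytica, an oleaginous yeast, as all genes whose deposited description contains glutathione S-transferase or glutathione transferase. The rule found 8 of 6797 genes, and 8 of the 8 had enough reads to be tested. RNA had been sequenced from strain F19, in 2 libraries, and from the control strain WLH, in 2 libraries. Both strains are labelled as PO1f, a laboratory strain that needs leucine and uracil, and both grew in synthetic medium without leucine that held 2.4 mM furfural, for 48 h at 30 °C. Furfural, an aldehyde released when plant biomass is broken down, was thus present in every library, and no library without it was analysed here. F19 comes from a search, with a CRISPR interference library that represses genes across the genome, for strains that tolerate furfural and acetic acid. Which gene F19 represses is not stated in its labels, and no check of that gene was made. Each condition rests on 1 strain, and nothing in the labels says that its libraries are separate cultures: the p-values below measure only the spread between libraries, which may be technical.

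Glutathione is a small thiol peptide made from glutamate, cysteine and glycine. Glutathione S-transferases join it to reactive, electrophilic compounds, some members of the superfamily also reduce peroxides or disulfides with it, and the conjugates are then moved or broken down. In yeasts these enzymes are known as part of the defence against oxidants, metals and toxic organic molecules, and some relatives have taken up regulatory roles, such as Ure2 of Saccharomyces cerevisiae, which holds nitrogen-responsive transcription factors in the cytoplasm.

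The 8 genes lie on 8 different scaffolds of the deposited assembly, whose build the labels do not state, and none of them overlaps another annotated gene. The exonic length of each of the 8 equals its span from start to end, so the annotation gives each of them 1 exon, as it does for 78.7% of all genes. Their exonic lengths run from 814 to 1363 bases. Of the 8, 4 carry the ortholog number of glutathione S-transferase (K00799), BKA90DRAFT_130966 carries that of glutathionyl-hydroquinone reductase (K07393), and the other three have none. Terms for a molecular function are given for 2 members, BKA90DRAFT_130966 and BKA90DRAFT_138006.

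Libraries held 18244313 to 24129664 counts over genes. The 2 libraries of a strain were more alike than libraries of different strains, with a Pearson correlation of their log2 CPM, which are counts scaled per library, of 0.987 within F19 and 0.992 within WLH, and from 0.908 to 0.929 across strains, taken over genes, which are not replicates. Strains were compared with edgeR's quasi-likelihood test on all 6414 genes with enough counts, and p-values were adjusted over those genes by the Benjamini-Hochberg method, with a threshold of 0.05. A log2 fold change below 0 means lower in F19. Transcripts of the whole genome differed widely between the strains, since 3294 of the genes tested, 51.4%, passed the threshold. Leaving out WLH replicate 1 left 961 rises and 958 falls, and leaving out WLH replicate 2 left 810 rises and 860 falls.

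Glutathione S-transferase transcripts were lower in F19 for most members. Of the 8 genes, 6 fell and 1 rose, and 1 did not pass. Over all genes tested, 25.5% fell and 25.9% rose. Changes of at least 2-fold were found for 3 of the 8, all of them falls, while 9.18% of all genes tested fell that far. The median log2 fold change was -0.80 over the 8 members and 0.01 over all genes tested. FPKM (counts per exon length and library total) of both F19 libraries lay below both WLH libraries for 7 members and above them for 1, so the strains did not overlap for any of the 8. The same held for 27.5% of all genes tested in the lower direction and 52.5% in the higher direction. Unless another setting is named, fold changes come from counts scaled with TMM factors, so they differ from ratios of the FPKM. Deposited FPKM are scaled to library totals, and scaling to library totals shifted the median over all genes to a log2 fold change of 0.24. With that scaling in the same test, 2419 genes rose and 1066 fell in all, against 1659 and 1635 with TMM factors, and 5 members fell and 1 rose, where 16.6% of all genes fell and 37.7% rose. These are values of whole cultures, in which fewer cells expressing a gene and less RNA per cell cannot be told apart.

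**Figure D1:**
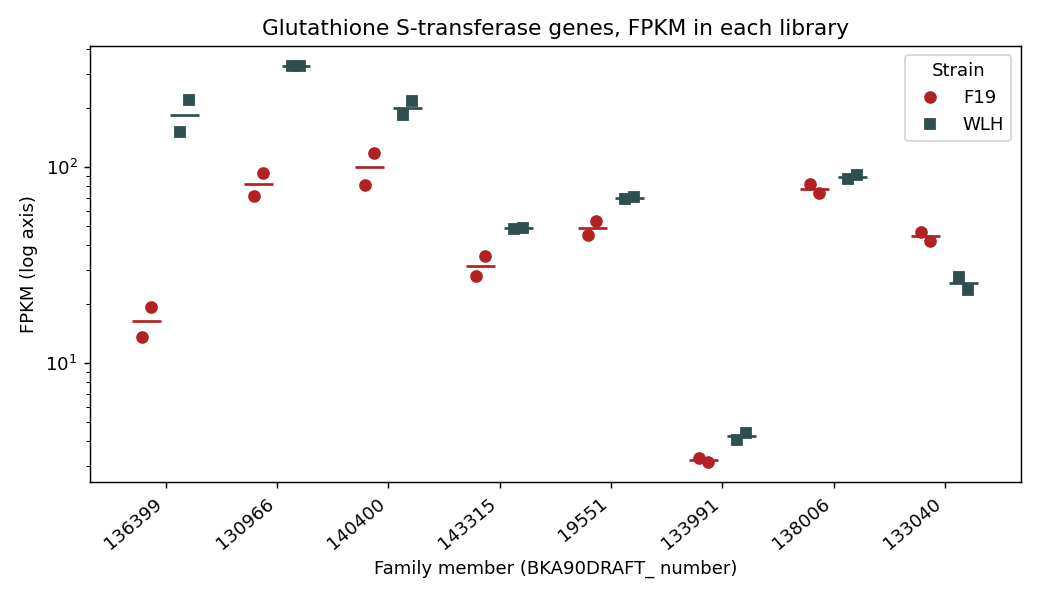
FPKM (vertical log axis) of the 8 glutathione S-transferase genes, with the F19 libraries as circles left of the WLH libraries as squares and a bar at each strain's mean (n = 2). BKA90DRAFT_136399, at the left, has the widest gap, at 13.6 and 19.4 FPKM in F19 against 151 and 219 FPKM in WLH, and BKA90DRAFT_133040, at the right, is the member with F19 above WLH.

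Among the members with the ortholog number K00799, BKA90DRAFT_136399 showed the largest change of the family. It stood at 13.6 and 19.4 FPKM in F19 replicates 1 and 2, against 151 and 219 FPKM in WLH replicates 1 and 2. The highest F19 library was thus far below the lowest WLH library, although the WLH libraries themselves lay 1.46-fold apart, the widest replicate gap of any member in that strain. The gene fell 13.1-fold, a log2 fold change of -3.71 ± 0.25 (SE; 95% interval -4.31 to -3.12; adjusted p = 0.000286), and was the 29th of the 6414 genes tested when ordered from the lowest log2 fold change. It lies at 160085 to 160898 of scaffold ML755994.1, on the minus strand.

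BKA90DRAFT_143315 (ML756091.1, 8829 to 9713, plus strand) also carries K00799 and fell by less. It had 27.9 and 35.1 FPKM in F19 replicates 1 and 2, against 48.7 and 49.1 FPKM in WLH replicates 1 and 2. The fall was 1.82-fold, at -0.87 ± 0.16 on the log2 scale (SE; adjusted p = 0.00502). The WLH libraries were almost equal, and the spread of the F19 libraries did not reach them. The annotation places the hypothetical gene BKA90DRAFT_119344 directly after this member on the same strand, with 0 bases between them. That gene had between 1.83 and 2.09 FPKM in the 4 libraries.

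BKA90DRAFT_138006 (ML756005.1, 170876 to 172238, minus strand) is the K00799 member whose deposited terms are those of a nitrogen regulator: sequestering of transcription factors, regulation of nitrogen use, transcription corepressor and glutathione peroxidase activity, functions known for Ure2 of Saccharomyces cerevisiae. It had 81.8 and 73.6 FPKM in F19 replicates 1 and 2, against 86.9 and 91.1 FPKM in WLH replicates 1 and 2. The strains did not overlap, but the step between the nearest libraries was smaller than the spread within F19. It fell 1.35-fold, at -0.43 ± 0.12 on the log2 scale (SE; adjusted p = 0.0207). The call ended with library totals (log2 fold change -0.19, adjusted p = 0.215). It also ended on leaving out F19 replicate 2, WLH replicate 1 or WLH replicate 2, at an adjusted p of 0.0787, 0.0829 or 0.114.

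BKA90DRAFT_133991 (ML755982.1, 260016 to 261214, plus strand), the last K00799 member, was the lowest of the family. It had 77 and 71 counts, or 3.28 and 3.14 FPKM, in F19 replicates 1 and 2, against 118 and 97 counts, or 4.07 and 4.43 FPKM, in WLH replicates 1 and 2. The F19 libraries lay below the WLH libraries, and the gene did not pass the threshold, with a log2 fold change of -0.64 ± 0.24 (SE; unadjusted 95% interval -1.21 to -0.06; adjusted p = 0.0627). A change of the size seen for BKA90DRAFT_136399 lies outside the interval, and a change of 2-fold lies inside it.

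BKA90DRAFT_130966 (ML756044.1, 68808 to 69770, minus strand) carries K07393 and terms for glutathione transferase and glutathione dehydrogenase (ascorbate) activity and for cell wall organization. Enzymes of this ortholog group reduce glutathionyl-hydroquinones, releasing the bound glutathione. It was the most abundant member in WLH. F19 replicates 1 and 2 held 71.7 and 93.3 FPKM, and both WLH replicates held 329 FPKM. The WLH libraries were nearly identical and stood more than 3-fold above the higher F19 library. The gene fell 4.68-fold, with a log2 fold change of -2.23 ± 0.17 (SE; 95% interval -2.63 to -1.82; adjusted p = 0.000367).

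The members with no ortholog number moved in both directions. BKA90DRAFT_140400 (ML756029.1, 47839 to 48898, plus strand) had 81.2 and 118 FPKM in F19 replicates 1 and 2, against 184 and 217 FPKM in WLH replicates 1 and 2. The F19 libraries lay 1.46-fold apart, the widest replicate gap of any member in F19, and both were below the lower WLH library. It fell 2.35-fold, at -1.24 ± 0.21 on the log2 scale (SE; adjusted p = 0.00304).

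BKA90DRAFT_19551 (ML756003.1, 37690 to 38706, plus strand) had 44.9 and 53.3 FPKM in F19 replicates 1 and 2, against 68.6 and 70.2 FPKM in WLH replicates 1 and 2. It fell 1.66-fold, at -0.73 ± 0.14 on the log2 scale (SE; adjusted p = 0.00503), and the strains did not overlap.

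BKA90DRAFT_133040 (ML755979.1, 63946 to 64935, plus strand) was the member that rose. It had 46.9 and 42.2 FPKM in F19 replicates 1 and 2, against 27.5 and 23.8 FPKM in WLH replicates 1 and 2. Both F19 libraries were above both WLH libraries. The rise was 1.48-fold, with a log2 fold change of 0.56 ± 0.15 (SE; 95% interval 0.21 to 0.92; adjusted p = 0.0185). Leaving out F19 replicate 1, WLH replicate 1 or WLH replicate 2 ended the call, at an adjusted p of 0.0507, 0.0523 or 0.127, and the direction stayed the same.

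**Figure D2:**
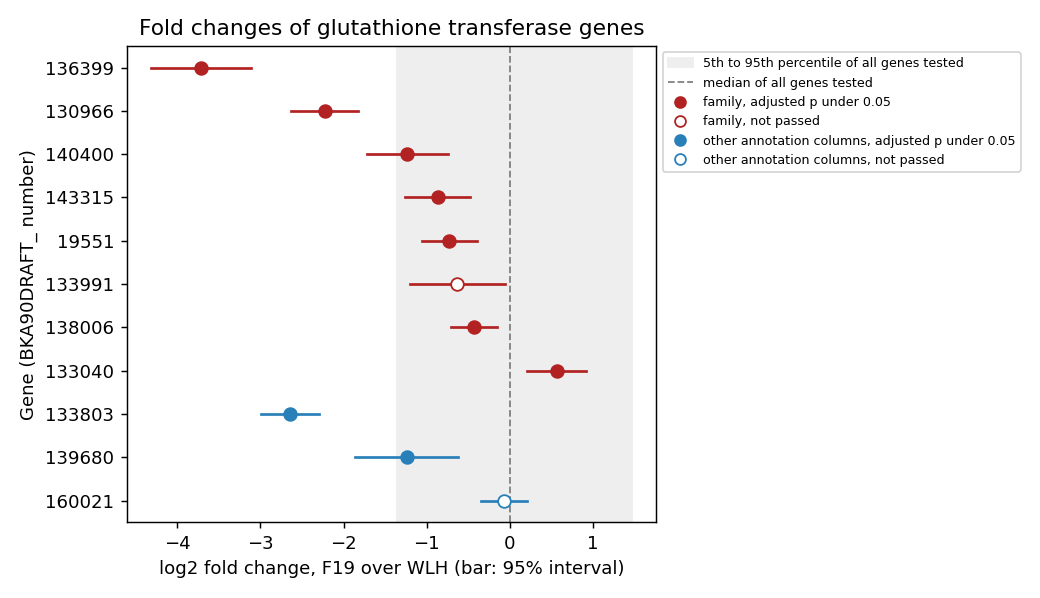
log2 fold change, F19 over WLH, with its unadjusted 95% interval (bars) for the 8 family members in red and for 3 genes annotated as glutathione transferases in other columns in blue; open circles did not pass an adjusted p of 0.05. The grey band spans the 5th to 95th percentile of all genes tested, -1.36 to 1.47, and BKA90DRAFT_136399, BKA90DRAFT_130966 and BKA90DRAFT_133803 lie wholly below it.

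The order of levels within the family differed between the strains. In F19 the highest members by FPKM were BKA90DRAFT_140400, BKA90DRAFT_130966 and BKA90DRAFT_138006, with means of 99.7, 82.5 and 77.7 FPKM, and neighbours among these overlapped in their library ranges. BKA90DRAFT_19551 and BKA90DRAFT_133040 followed and overlapped each other, and BKA90DRAFT_143315, BKA90DRAFT_136399 and BKA90DRAFT_133991 came below without overlap. In WLH the order began with BKA90DRAFT_130966, whose libraries stood above all others, followed by BKA90DRAFT_140400 and BKA90DRAFT_136399, whose ranges overlapped, and then BKA90DRAFT_138006, BKA90DRAFT_19551, BKA90DRAFT_143315, BKA90DRAFT_133040 and BKA90DRAFT_133991 without overlap between neighbours. BKA90DRAFT_136399 was thus in position 7 of 8 in F19 and in position 3 of 8 in WLH. The highest mean was 31.1 times the lowest in F19 and 77.4 times the lowest in WLH.

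Summed over the 8 genes, FPKM came to 371 and 438 in F19 replicates 1 and 2, against 899 and 1004 in WLH replicates 1 and 2. The mean family sum of F19 was 0.425 times that of WLH. The 3 members with the lowest log2 fold changes, BKA90DRAFT_136399, BKA90DRAFT_130966 and BKA90DRAFT_140400, summed to 199 ± 45.6 FPKM in F19 and 714 ± 72.2 FPKM in WLH (SD, n = 2 each). The other 5 summed to 206 ± 1.87 FPKM in F19 and 237 ± 2.08 FPKM in WLH (SD, n = 2 each). Most of the gap between the strains in the family sum therefore lay in those 3 genes, which were grouped after their values were seen. They made up 48.8% of the sum in F19 and 75% in WLH. Within a library these shares do not depend on its scaling. The share of BKA90DRAFT_136399 was 4.05% ± 0.53 in F19 and 19.3% ± 3.61 in WLH, and that of BKA90DRAFT_133040 was 11.1% ± 2.12 in F19 and 2.71% ± 0.49 in WLH (SD, n = 2 each). With 2 libraries a strain an exact two-sided permutation test cannot go below p = 0.333, so sums and shares are given without a test.

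**Figure D3:**
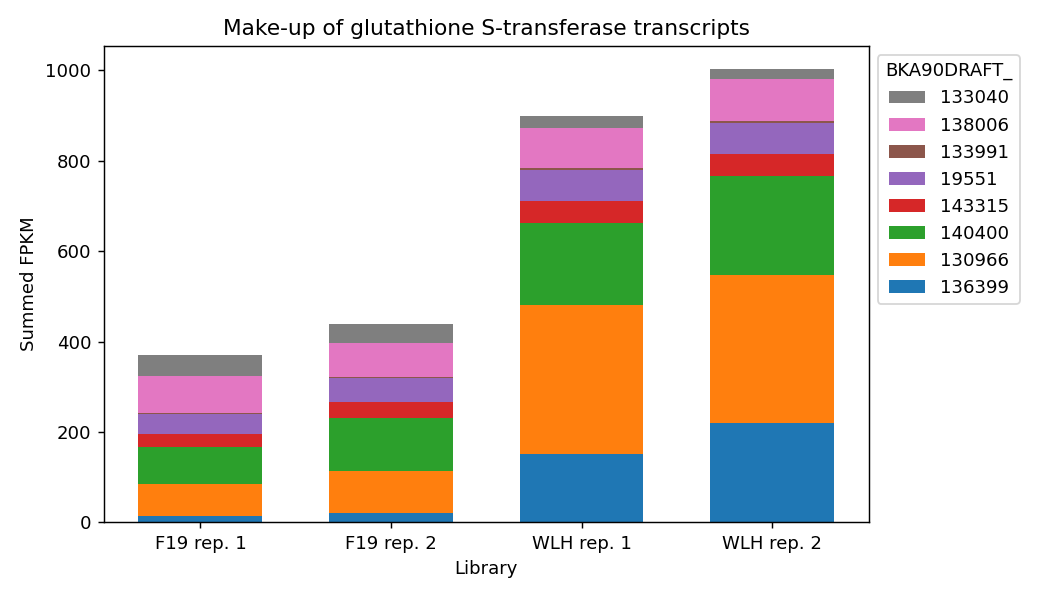
Summed FPKM (vertical axis) of the 8 glutathione S-transferase genes in each library, F19 to the left of WLH, with 1 colour for each gene. The sums are 371 and 438 FPKM in F19 and 899 and 1004 FPKM in WLH, and the lower 3 blocks, BKA90DRAFT_136399, BKA90DRAFT_130966 and BKA90DRAFT_140400, hold most of the gap.

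A further 3 genes have no such words in their description and are annotated as glutathione transferases in another column of the deposited table. BKA90DRAFT_133803 (ML755981.1, 373197 to 373853), described as hypothetical and numbered K00799, had 22.3 and 19.4 FPKM in F19 replicates 1 and 2, against 116 and 106 FPKM in WLH replicates 1 and 2. It fell 6.25-fold, at -2.64 ± 0.15 on the log2 scale (SE; adjusted p = 0.000167), a size between those of BKA90DRAFT_136399 and BKA90DRAFT_130966. BKA90DRAFT_139680 (ML756021.1, 46475 to 47322), also hypothetical and numbered K00799, was more abundant than every member of the family, with 253 and 443 FPKM in F19 replicates 1 and 2 and 730 and 676 FPKM in WLH replicates 1 and 2. It fell 2.36-fold (log2 fold change -1.24 ± 0.26, SE; adjusted p = 0.0077). Leaving out WLH replicate 1 or WLH replicate 2 ended that call, at an adjusted p of 0.0648 or 0.0517. BKA90DRAFT_160021 is a thioredoxin-like protein whose terms for iron homeostasis and binding of an iron-sulfur cluster stand beside that for glutathione transferase activity. It had 95.5 and 99.3 FPKM in F19 replicates 1 and 2, against 86.6 and 87.7 FPKM in WLH replicates 1 and 2, and did not pass (log2 fold change -0.07 ± 0.12, SE; 95% interval -0.35 to 0.20; adjusted p = 0.628). Its FPKM were higher in F19 while its log2 fold change with TMM factors was below 0, and with library totals that log2 fold change was 0.16. With these 3 genes added, 8 of 11 fell and 1 rose, where 25.5% of all genes tested fell and 25.9% rose.

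The authors' deposited table of significant genes listed 3 of the 8 members, BKA90DRAFT_136399, BKA90DRAFT_130966 and BKA90DRAFT_140400, with log2 fold changes, F19 over WLH, of -3.71, -2.22 and -1.23. It held 1249 genes in all, against 6797 genes in the whole series. The smallest absolute log2 fold change in the authors' deposited table was 1.00, so members with smaller changes could not appear in it.

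Genes matched by description or ortholog number to enzymes that make, recycle, use and break down glutathione were set beside the family as a list of 19. Of these, BKA90DRAFT_115825 and BKA90DRAFT_138104 matched by description alone and carry ortholog numbers of other pathways. Of the 19, 12 fell, BKA90DRAFT_115825 among them, 4 rose and 3 did not pass, with a median log2 fold change of -0.69. Over all genes tested 25.5% fell and 25.9% rose, so the share of rises in the list was near that of all genes. With either WLH library left out, fewer genes passed both in the list and over all genes, so these shares do not apply there. With library totals 8 fell and 5 rose, where 16.6% of all genes fell and 37.7% rose, at a median of -0.46 where all genes had 0.24. The search found no ABC transporter with the ortholog numbers used for pumps that carry glutathione conjugates. A transporter with a term for that activity and no ortholog number, BKA90DRAFT_138415, was looked up after the values were seen. It had 54.8 and 59.4 FPKM in F19 replicates 1 and 2, against 59.1 and 56.3 FPKM in WLH replicates 1 and 2, so the strains overlapped, and it did not pass (log2 fold change -0.25, 95% interval -0.56 to 0.07; adjusted p = 0.157).

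Glutathione is made in a pair of steps. Glutamate-cysteine ligase, BKA90DRAFT_132497 (K11204), which catalyses the first and rate-limiting step, had 49.2 and 47.6 FPKM in F19 replicates 1 and 2, against 95.5 and 120 FPKM in WLH replicates 1 and 2. It fell 2.62-fold (log2 fold change -1.39 ± 0.15, SE; adjusted p = 0.000761), and the strains were well apart. BKA90DRAFT_77849, numbered as the regulatory subunit of that ligase (K11205), moved the other way, with 100.04 and 80.6 FPKM in F19 replicates 1 and 2 and 48.3 and 51.8 FPKM in WLH replicates 1 and 2. It rose 1.53-fold (adjusted p = 0.0107), which no longer passed on leaving out WLH replicate 1 (adjusted p = 0.0838) or WLH replicate 2 (0.0631). Glutathione synthase, BKA90DRAFT_143757 (K01920), which adds glycine, had 45.0 and 40.9 FPKM in F19 replicates 1 and 2, against 51.7 and 50.8 FPKM in WLH replicates 1 and 2. With TMM factors it fell 1.40-fold (adjusted p = 0.0124). That call was lost with library totals (adjusted p = 0.117), without F19 replicate 2 (0.0501), without WLH replicate 1 (0.0764) and without WLH replicate 2 (0.0669).

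Recycling of oxidised glutathione needs glutathione reductase and NADPH. Glutathione reductase BKA90DRAFT_135033 had 124 and 142 FPKM in F19 replicates 1 and 2, against 431.8 and 462 FPKM in WLH replicates 1 and 2. It fell 3.96-fold (log2 fold change -1.98 ± 0.15, SE; adjusted p = 0.000371), the largest change of the list. The second gene described as glutathione reductase, BKA90DRAFT_143148, was far less abundant, at 12.8 and 21.2 FPKM in F19 replicates 1 and 2 and 21.6 and 27.6 FPKM in WLH replicates 1 and 2, and just passed (1.69-fold lower, adjusted p = 0.0474). Its call ended on leaving out F19 replicate 1, WLH replicate 1 or WLH replicate 2, at an adjusted p of 0.128, 0.10 or 0.251. It also ended with library totals (0.130), upper-quartile scaling (0.0562) and a robust fit (0.0508).

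The dehydrogenases of the oxidative pentose phosphate pathway, which supply NADPH, were lower too. Glucose-6-phosphate dehydrogenase, BKA90DRAFT_137277, had 267 and 348 FPKM in F19 replicates 1 and 2, against 578 and 575 FPKM in WLH replicates 1 and 2. With TMM factors it fell 2.2-fold (adjusted p = 0.00262). The 6-phosphogluconate dehydrogenase BKA90DRAFT_132847 had 743 and 933 FPKM in F19 replicates 1 and 2, against 1650 and 1509 FPKM in WLH replicates 1 and 2. With TMM factors it fell 2.21-fold (adjusted p = 0.00318). A pair of further genes entered this role by their description alone. BKA90DRAFT_115825 has the ortholog number of ketol-acid reductoisomerase (K00053), of branched-chain amino acid synthesis, and BKA90DRAFT_138104 that of 3-hydroxyisobutyrate dehydrogenase (K00020), so neither belongs to glutathione recycling by its number. BKA90DRAFT_115825 was 1.61-fold lower (adjusted p = 0.0269; 0.183 without WLH replicate 1, 0.0948 without WLH replicate 2 and 0.0844 with library totals). BKA90DRAFT_138104 did not pass (log2 fold change 0.23, adjusted p = 0.222), and was called higher with library totals (adjusted p = 0.0329).

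**Figure D4:**
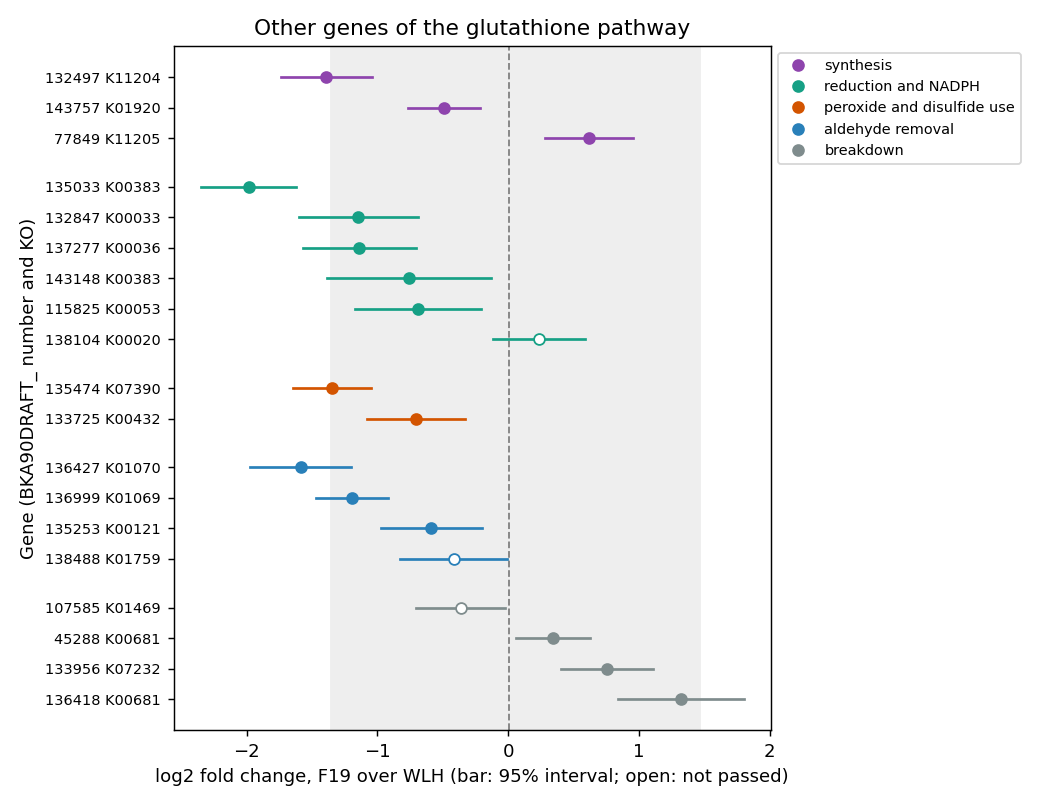
log2 fold change, F19 over WLH, with its unadjusted 95% interval (bars) for the 19 genes of the glutathione pathway list, grouped by role. BKA90DRAFT_115825 and BKA90DRAFT_138104 are in it by description alone and carry ortholog numbers of other pathways. Open circles did not pass an adjusted p of 0.05, and the grey band spans the 5th to 95th percentile of all genes tested. Points of the 4 upper roles lie mostly left of 0, and 3 of the 4 breakdown genes lie right of it.

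Of 6 genes for enzymes that act with glutathione or its conjugates on peroxides, disulfides and aldehydes, 5 fell, where 25.5% of all genes tested did. With library totals 4 fell, where 16.6% of all genes did. BKA90DRAFT_135474 (K07390), a monothiol glutaredoxin by its ortholog number, had 47.5 and 47.7 FPKM in F19 replicates 1 and 2, against 104 and 102 FPKM in WLH replicates 1 and 2, and fell 2.54-fold (adjusted p = 0.00059). Glutathione peroxidase BKA90DRAFT_133725 (K00432) fell 1.63-fold (adjusted p = 0.00976; 0.0914 without WLH replicate 2). S-formylglutathione hydrolase, BKA90DRAFT_136427 (K01070), which frees glutathione at the end of formaldehyde removal, had 53.8 and 67.7 FPKM in F19 replicates 1 and 2, against 166 and 144 FPKM in WLH replicates 1 and 2, and fell 3.0-fold (adjusted p = 0.00073). The dehydrogenase of the step before, BKA90DRAFT_135253 (K00121), which acts on S-(hydroxymethyl)glutathione, fell 1.5-fold (adjusted p = 0.0215), a call lost with library totals (0.105), without F19 replicate 1 (0.0592) and without WLH replicate 2 (0.157). Of the glyoxalase pair, which removes methylglyoxal, hydroxyacylglutathione hydrolase BKA90DRAFT_136999 (K01069) fell 2.29-fold (adjusted p = 0.000656). Its partner lactoylglutathione lyase, BKA90DRAFT_138488 (K01759), had 112 and 123 FPKM in F19 replicates 1 and 2 and 153 and 114 FPKM in WLH replicates 1 and 2, so the strains overlapped, and it did not pass (adjusted p = 0.0801).

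Of 4 genes for breaking glutathione down, 3 rose, 0 fell and 1 did not pass, where 25.9% of all genes tested rose and 25.5% fell. With library totals the 4 genes again gave 3 rises and 0 falls, where 37.7% of all genes rose and 16.6% fell, and the difference from the other roles was not tested. Gamma-glutamyltransferase BKA90DRAFT_136418 (K00681), which removes the glutamyl group, had 59.1 and 77.9 FPKM in F19 replicates 1 and 2, against 26.7 and 19.9 FPKM in WLH replicates 1 and 2. It rose 2.50-fold (log2 fold change 1.32 ± 0.20, SE; adjusted p = 0.00234). The second gamma-glutamyltransferase, BKA90DRAFT_45288, rose 1.27-fold (adjusted p = 0.0481), and this call was lost in DESeq2 (0.0619) and without F19 replicate 2 (0.134), WLH replicate 1 (0.165) or WLH replicate 2 (0.187). The ChaC-like gene BKA90DRAFT_133956 (K07232), of a family that cleaves glutathione inside the cell, had 38.6 and 37.4 FPKM in F19 replicates 1 and 2, against 20.2 and 18.0 FPKM in WLH replicates 1 and 2. With TMM factors it rose 1.69-fold (adjusted p = 0.00581), a call lost without WLH replicate 2. The 5-oxoprolinase BKA90DRAFT_107585, which returns glutamate from a breakdown product, did not pass (log2 fold change -0.36, adjusted p = 0.0713).

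The genes on either side of the members were examined as well. Of 16 flanking genes, 7 fell, 4 rose, 4 did not pass and 1 had too few counts to be tested, where 25.5% of all genes tested fell and 25.9% rose. The share of rises was thus near that of all genes tested. The 4 that rose lie beside BKA90DRAFT_133991, BKA90DRAFT_138006, BKA90DRAFT_140400 and BKA90DRAFT_19551, members whose FPKM were lower in F19. FPKM were lower in F19 for 7 of the 8 members, so most flanking genes lie beside such a member. BKA90DRAFT_136399 lies between a redoxin gene, of the thiol peroxidase group, and a chaperonin of the Cpn60/TCP-1 family. The redoxin gene, BKA90DRAFT_136398, ends 108 bases from its end, in tail-to-tail orientation, and had 297 and 392 FPKM in F19 replicates 1 and 2, against 671 and 569 FPKM in WLH replicates 1 and 2 (2.11-fold lower, adjusted p = 0.00351). The chaperonin gene, BKA90DRAFT_136400, lies 1245 bases away and was 2.12-fold lower (adjusted p = 0.00126). Both neighbours fell, by less than BKA90DRAFT_136399 itself. BKA90DRAFT_130966 likewise lies between a peptidase M24 gene, BKA90DRAFT_117044, 214 bases away and 1.52-fold lower (adjusted p = 0.0128; 0.105 without WLH replicate 2 and 0.0797 with library totals), and a HAD-like gene, BKA90DRAFT_102824, 1034 bases away and 2.01-fold lower (adjusted p = 0.0016). The counts are not stated to use strand, so reads that run past the end of a gene into a close neighbour cannot be told apart.

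Among 3180 described genes with a mean of at least 10 FPKM in a strain, 3 came closest to BKA90DRAFT_136399 in their log2 CPM over the 4 libraries, each gene centred on its own mean. These were homogentisate 1,2-dioxygenase of tyrosine breakdown, BKA90DRAFT_137911, an aspartic peptidase, BKA90DRAFT_83157, and a major facilitator, BKA90DRAFT_139964, with root mean square differences of 0.33, 0.36 and 0.42. For BKA90DRAFT_133040 the closest were a PSP1 domain protein, BKA90DRAFT_150578, the RNA polymerase subunit Rpc34, BKA90DRAFT_135278, and the cell wall synthesis protein BKA90DRAFT_134243, with differences of 0.03, 0.04 and 0.04. The minimum of 10 FPKM could be met in either strain. All 3 genes close to BKA90DRAFT_136399 met it in WLH and not in F19, so they entered only through the strain where they are high. With 4 libraries the measure mostly follows the size of the strain difference, so these likenesses are a description.

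The plot of the members under each processing setting shows how far these changes rest on 1 scaling or 1 library: BKA90DRAFT_136399 ran from -4.00 to -3.40 and BKA90DRAFT_130966 from -2.44 to -1.99 on the log2 scale over the 15 alternatives.

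**Figure D5:**
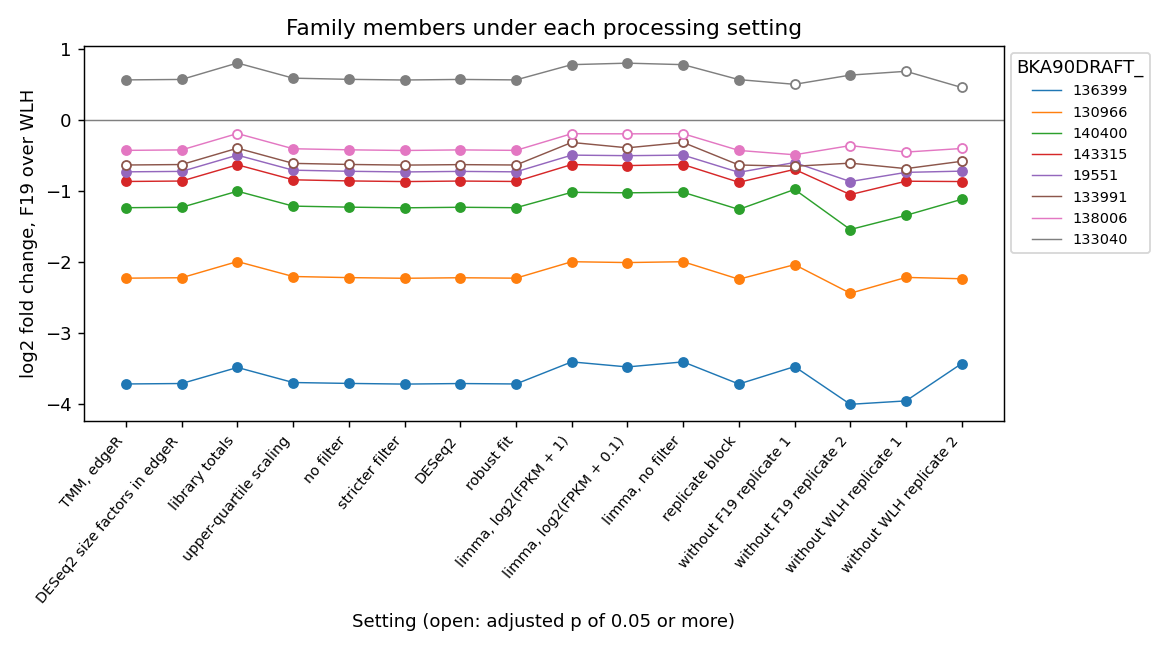
log2 fold change, F19 over WLH (vertical axis), of the 8 members under the reported setting (at the left) and 15 alternatives, with open circles where the adjusted p was 0.05 or more. No line crosses 0, and open circles belong to BKA90DRAFT_133991, BKA90DRAFT_138006 and BKA90DRAFT_133040.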

How the data were processed

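Poly(A) RNA of 2 F19 and 2 WLH libraries was selected with oligo(dT) beads and sequenced as paired ends, per the labels' protocols. Per the submitters' processing notes the authors used DESeq2, HTSeq 0.6.1, HISAT2 2.2.1 and cutadapt 1.9.1; their settings, the build and the strand setting are not stated there. Per the file headers, the deposited table holds raw counts, FPKM and exonic lengths. FPKM recomputed from counts, lengths and library totals differed by a median of 0.00522%. The authors' second table, of significant genes, gives a mean normalised signal, linear fold, log2 fold change, test score and p-value, per the file headers. The columns of WLH replicate 1 are spelled with a letter I for the digit; 0 columns were left unmapped. The 3 rows that name no gene (control, experimental, Genome; 0.134% to 0.387% of counts) were left out.

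The test of the counts was that of edgeR 4.0.16 under R 4.3.3 (filterByExpr, TMM factors of 0.916 to 1.10, quasi-likelihood, two-sided, strain as the only term). Standard errors are log2 fold changes over the root of F. DESeq2 1.42.0 and limma 3.58.1 on log2(FPKM + 1) were alternatives. The tests were also run on simulated counts in which far fewer genes changed, evenly up and down. Changes as wide as those between these strains were not covered. The biological coefficient of variation was 14.1%. Genes of few counts carry more counting error, and PCR copies are not independent molecules.

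All 8 members were named; of the pathway list, all genes of synthesis and reduction and up to 4 per other role; and 3 genes closest in pattern to the members with the largest fall and rise. Flanking genes were named after their values were seen. The members and lists were chosen with earlier results of these data known. Of the 8 identifiers, 0 matched the reference gene table, so no sequence is shown. Reads shared by near-identical copies cannot be told apart, which makes values of a gene family less certain.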

Additional observations from a re-analysis of the deposited data

How the results depend on the processing

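Each member kept its direction under the 15 alternatives, and 5 calls (BKA90DRAFT_136399, BKA90DRAFT_130966, BKA90DRAFT_140400, BKA90DRAFT_143315 and BKA90DRAFT_19551) were kept under all of them, while BKA90DRAFT_133991 passed under none. BKA90DRAFT_138006 was not called with library totals (log2 fold change -0.19) or in limma on log2(FPKM + 1) (-0.19), log2(FPKM + 0.1) (-0.20) or without a filter (-0.19). Leaving out each library in turn gave it -0.49 to -0.36, and gave BKA90DRAFT_133040 0.45 to 0.68. Those fits tested 6459 to 6484 genes. The ranges of counts that follow run over these fits and are not paired by the library left out. With a library left out, 5 to 6 members fell and 0 to 1 rose, 7 to 11 genes of the pathway list fell and 1 to 4 rose, and over all genes 860 to 1587 fell, 810 to 1534 rose and 1670 to 3121 passed; the lone library of a strain was taken to vary like the other strain. Falls over all genes numbered 1066 with library totals, and 1056, 1052 and 1071 in the limma fits; these fits use library totals, which moved the median of all genes to between 0.19 and 0.24. With the replicate number as a block 3369 genes passed, and 1 call named here, that of BKA90DRAFT_45288, was lost (adjusted p = 0.0862). Deviations of same-numbered libraries correlated at -0.09 over genes, which cannot show whether those libraries were handled together. The log2 ratio of summed family FPKM, -1.23 as deposited, was -1.47 after division by the TMM factors and -1.46 with DESeq2 size factors, both added after seeing the data. BKA90DRAFT_133991 had the fewest counts of the family, 71 to 118 a library. Whether depth had a part in its not passing was not tested.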

Other observations

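Pathway genes share scaffolds with some members. BKA90DRAFT_136399, which fell 13.1-fold, lies 42561 bases from the gamma-glutamyltransferase BKA90DRAFT_136418, which rose 2.50-fold, and 57551 bases from the S-formylglutathione hydrolase BKA90DRAFT_136427, which fell 3.0-fold, with 13 and 20 annotated starts between them. BKA90DRAFT_133991 lies 68160 bases from the ChaC-like gene BKA90DRAFT_133956. BKA90DRAFT_133040 lies 357500 bases from BKA90DRAFT_77849, numbered as the regulatory subunit of glutamate-cysteine ligase, with 115 annotated starts between them. How often other genes share a scaffold was not counted. In F19, 5 of the 8 members had the higher FPKM in replicate 2, and in WLH 6 of the 8 did. The same count was not made over all genes, so these counts are not read as a trait of the family.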
